A study of Caenorhabditis elegans with 6 samples.

Results

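The loci described here are the annotated 21U-RNA genes of Caenorhabditis elegans that lie outside the 5 clones Y57G11C, Y105C5A, Y105C5B, Y51H4A and Y116A8A of chromosome IV. They were taken by name: every row whose symbol begins with 21ur- and whose sequence name does not begin with one of those clones. This gave 9368 of the 13407 21U-RNA loci, and of 42402 loci in all. The other 4039 21U-RNA loci, those of the 5 clones, serve below as a comparison.

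21U-RNAs are the piRNAs of C. elegans: short germ line RNAs that begin with uridine and are bound by PRG-1, an Argonaute of the Piwi class. Most are made from their own tiny genes on chromosome IV, each transcribed as a short capped precursor that is trimmed at both ends and methylated at its 3' end. PRG-1 with its 21U-RNA pairs with other transcripts, at which RNA-dependent RNA polymerases then make 22G-RNAs. Some of these are bound by HRDE-1, a nuclear Argonaute that directs inherited silencing of transcription. Much of this takes place in P granules, condensates at the nuclear surface of germ cells, and MEG-3 and MEG-4 are intrinsically disordered proteins needed to form P granules in the embryo.

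Small RNAs came from whole worms at the young mother stage, with 3 strains of 2 libraries each. Triple mutants carried hrde-1(tm1200) together with meg-3(ax3055) and meg-4(ax3052). The meg-3 meg-4 strain carried meg-3(ax3055) and meg-4(ax3052), is named JH3745 in the labels and was outcrossed. The hrde-1 strain carried hrde-1(tm1200) alone. All were grown at 20 °C on HT115 bacteria with the L4440 vector, and all RNA was treated with a 5' polyphosphatase, which lets RNAs with a 5' triphosphate into the library beside those with a monophosphate, such as 21U-RNAs and microRNAs (miRNAs). For N2, the wild type, the authors' mean and their own fold changes were used, without an error. The labels do not say whether the 2 libraries of a strain came from separate cultures, so p-values measure the spread between libraries, which may be technical.

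The libraries held 6780320 and 2384147 counted reads in triple mutants, 5628602 and 5115457 in meg-3 meg-4, and 5450690 and 4604636 in hrde-1. miRNAs took 32.1% and 28.6% of the reads in triple mutants, 31.2% and 31.6% in meg-3 meg-4, and 18.2% and 19.5% in hrde-1. Levels below are RPM (reads per 1000000) after scaling all 6 libraries together with the trimmed mean of M values (TMM), and ratios within a library do not depend on scaling. In whole worms, fewer germ cells and fewer 21U-RNAs per germ cell cannot be told apart. The vitellogenin loci vit-1 to vit-6, which code for yolk proteins made in the intestine, summed to 151 and 79.7 RPM in triple mutants, 274 and 3231 in meg-3 meg-4, and 38.8 and 55.0 in hrde-1. The embryonic miRNAs mir-35 to mir-42 summed to 9764 and 10911 in triple mutants, 4948 and 13606 in meg-3 meg-4, and 8756 and 8359 in hrde-1. The second meg-3 meg-4 library was the highest of the 6 in both sums. The 31 loci of major sperm protein genes summed to between 23.5 and 63.3 RPM in the 6 libraries. The part of such differences in the results on 21U-RNAs was not tested.

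The loci outside the 5 clones were nearly all on chromosome IV as well. In the reference annotation, 8795 of them (93.9%) were on chromosome IV, 181 on V, 146 on X, 96 on II, 82 on I and 66 on III, and 2 could not be matched. Ordered along chromosome IV, with runs of 21U-RNA loci joined over gaps of at most 50 kb, 2428 loci (25.9%) fell in one large block on the left and 5687 (60.7%) in one on the right. The loci of the 5 clones all lay within the right block. Another 680 loci were on chromosome IV outside both blocks, and 571 were on other chromosomes. By position, 5029 loci (53.7%) were between genes, 3437 (36.7%) in introns and 900 (9.61%) in exons of other genes. An annotated locus spans 21 bases, and 3739 loci (39.9%) overlap another 21U-RNA locus. How the authors assigned reads that fit 2 loci, and whether they counted by strand, is not given in the sources used here, so values at overlapping or antisense loci are uncertain.

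Most of these loci had few or no reads. The number of loci with 0 reads was 4983 and 6208 in triple mutants, 5408 and 5525 in meg-3 meg-4, and 5074 and 4981 in hrde-1. A locus at 0 reads may hold up to 3 reads by counting error alone. Across the 6 libraries, 2922 loci (31.2%) had no read, 2090 (22.3%) had at least 1 read in every library, and 86 had at least 100 reads in every library. By mean level, 304 loci reached 10 RPM, 1202 lay between 1 and 10, and 7862 lay below 1. The most abundant locus held 3.77% of the summed mean level, the first 10 held 22.8%, the first 100 held 61.5% and the first 1000 held 92.1%. The number in a locus name went with its abundance: the 4600 loci numbered up to 8000 held 92.3% of the summed level with 15.2% of them at 0 reads, while 46.6% of the 4768 loci with higher numbers were at 0. Loci in exons were more often without reads, 50.3% of them, against 29.0% of loci between genes and 29.5% of those in introns.

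Of the 15 most abundant loci, 14 lay in the right block, 8 between genes and 7 in introns. The first was 21ur-5787 (Y73F8A.556), with 1251 and 952 RPM in triple mutants, 575 and 762 in meg-3 meg-4, and 736 and 964 in hrde-1. Both triple mutant libraries were above both meg-3 meg-4 libraries, and the hrde-1 libraries overlapped with those of either strain. Its neighbours in rank, 21ur-5329 (Y57G11A.68) and 21ur-38 (Y43D4A.14), averaged 777 ± 178 and 727 ± 161 RPM in triple mutants (SD, n = 2), 502 ± 80.8 and 556 ± 108 in meg-3 meg-4, and 613 ± 102 and 604 ± 112 in hrde-1. The levels of these neighbours overlapped each other in every strain, and in each strain both libraries lay higher at 21ur-5787 than at 21ur-5329.

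The fourth, 21ur-3506 (Y64G10A.129, in an intron of srab-24), had 406 and 668 RPM in triple mutants, 385 and 611 in meg-3 meg-4, and 397 and 865 in hrde-1. In each strain its 2 libraries lay further apart than the strain means did. Next in rank came 21ur-3215, 21ur-4748, 21ur-1143, 21ur-3511, 21ur-5630, 21ur-1793, 21ur-7225, 21ur-705 and 21ur-88. Of these, 21ur-3215 averaged 653 ± 152 in triple mutants, 416 ± 15.6 in meg-3 meg-4 and 545 ± 122 in hrde-1 (SD, n = 2). At 21ur-88 the means were 331 ± 51.7 in triple mutants, 235 ± 51.8 in meg-3 meg-4 and 329 ± 68.0 in hrde-1 (SD, n = 2). In hrde-1 the mean at 21ur-705 was lower, 291 ± 88.7 (SD, n = 2). The last of the 15, 21ur-1129 (F56F12.6, in an intron of sorb-1), averaged 300.0 ± 50.4 in triple mutants, 208 ± 26.0 in meg-3 meg-4 and 267 ± 94.3 in hrde-1.

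The one left-block locus among the 15 was 21ur-15223 (B0273.50, in an intron of unc-5, the gene of a netrin receptor that guides migrating cells and axons). It had 374 and 271 RPM in triple mutants, 148 and 108 in meg-3 meg-4, and 287 and 361 in hrde-1. Both meg-3 meg-4 libraries were below the other 4, and it was the single locus of the 15 that passed the test between triple mutants and meg-3 meg-4. Over the 15, both triple mutant libraries were above both meg-3 meg-4 libraries at 13 loci, against 18.8% of all loci tested. Both meg-3 meg-4 libraries were below both hrde-1 libraries at 6 of the 15, against 24.1% of all loci tested.

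**Figure D1:**
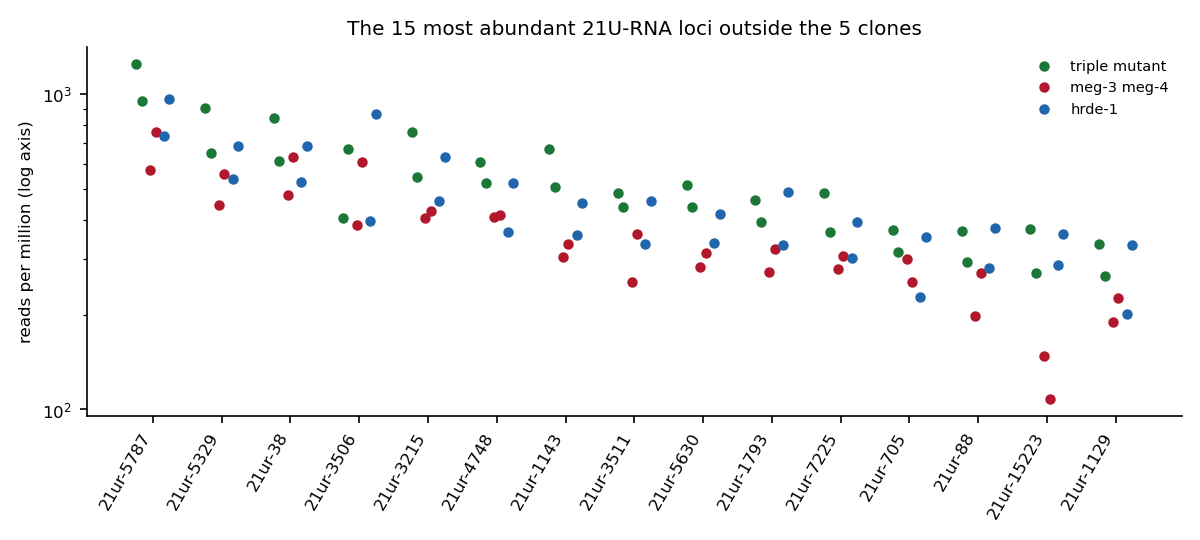
RPM on a log axis for the 15 most abundant 21U-RNA loci outside the 5 clones, with 1 point per library and 2 libraries per strain. At 21ur-15223 the 2 meg-3 meg-4 points (148 and 108) sit well below the other 4, and at 21ur-3506 the 2 libraries of each strain lie far apart.

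Summed over all 9368 loci, 21U-RNA reads took the smallest share of the library in meg-3 meg-4. The share was 2.28% ± 0.142 in triple mutants (SD, n = 2), 1.86% ± 0.120 in meg-3 meg-4 and 2.79% ± 0.339 in hrde-1, beside 2.73% for the authors' N2 mean. On the TMM scale the sums were 26789 ± 3408 RPM in triple mutants, 18405 ± 2204 in meg-3 meg-4 and 24385 ± 5986 in hrde-1 (SD, n = 2). The triple mutant sum was 1.45-fold that of meg-3 meg-4 with no overlap of the libraries (exact permutation test, two-sided, p = 0.333, the smallest p that 2 libraries against 2 can give). Against hrde-1 the triple mutant sum was 1.11-fold, and the libraries overlapped (exact permutation test, two-sided, p = 0.667). That direction depends on the scaling: the log2 ratio of triple mutant to hrde-1 was 0.15 with TMM, -0.28 with library totals and -0.97 with miRNA reads. The meg-3 meg-4 sum was 0.764-fold that of hrde-1, without overlap (exact permutation test, two-sided, p = 0.333). Here the gap was narrow: 19964 RPM in the second meg-3 meg-4 library against 20153 in the first hrde-1 library. The log2 ratio of meg-3 meg-4 to hrde-1 was -0.39, and -0.14 without the second hrde-1 library.

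The ratio of reads outside the 5 clones to reads inside them is free of scaling. It was 2.53 and 2.52 in triple mutants, 2.22 and 2.06 in meg-3 meg-4, and 2.53 and 2.55 in hrde-1, with 2.36 in the authors' N2 mean. Both meg-3 meg-4 libraries were below all others, while triple mutant and hrde-1 libraries overlapped (exact permutation tests, two-sided, p = 0.333 for triple mutants against meg-3 meg-4, 0.667 for triple mutants against hrde-1 and 0.333 for meg-3 meg-4 against hrde-1).

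The loci outside the clones did not move as a unit: those of the left block on chromosome IV stood apart. The blocks were drawn after the calls below had been seen, so their comparison is a description without a test. For every 100 reads of the right block, the left block had 20.6 and 18.8 reads in triple mutants, 14.1 and 10.9 in meg-3 meg-4, and 21.5 and 21.04 in hrde-1. In the authors' N2 mean it had 15.6. Both meg-3 meg-4 libraries lay below N2, and both libraries of each strain with the hrde-1 mutation lay above it. The ratio in triple mutants was 1.59-fold that in meg-3 meg-4, and the ratio in meg-3 meg-4 was 0.583-fold that in hrde-1. Counting error was small beside these differences: the exact (Clopper-Pearson) 95% intervals ran from 18.4 to 19.3 in the second triple mutant library, which was the shallowest, and from 13.8 to 14.4 in the first meg-3 meg-4 library, and they cover counting error only.

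In levels, the left block summed to 4289 ± 777 RPM in triple mutants (SD, n = 2), 1948 ± 70.1 in meg-3 meg-4 and 4163 ± 962 in hrde-1. The right block summed to 21671 ± 2561 in triple mutants, 15769 ± 2257 in meg-3 meg-4 and 19603 ± 4833 in hrde-1. For every 100 reads of the right block, chromosome IV outside the blocks had 3.08 and 3.29 in triple mutants, 3.92 and 3.34 in meg-3 meg-4, 2.45 and 2.72 in hrde-1 and 3.87 in the authors' N2 mean. That ratio was highest in meg-3 meg-4 and N2, so the loci beside the blocks did not share the order of the left block. Loci on other chromosomes had 0.647 and 0.621 reads in triple mutants, 0.850 and 0.694 in meg-3 meg-4, 0.529 and 0.554 in hrde-1 and 0.752 in the authors' N2 mean.

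**Figure D2:**
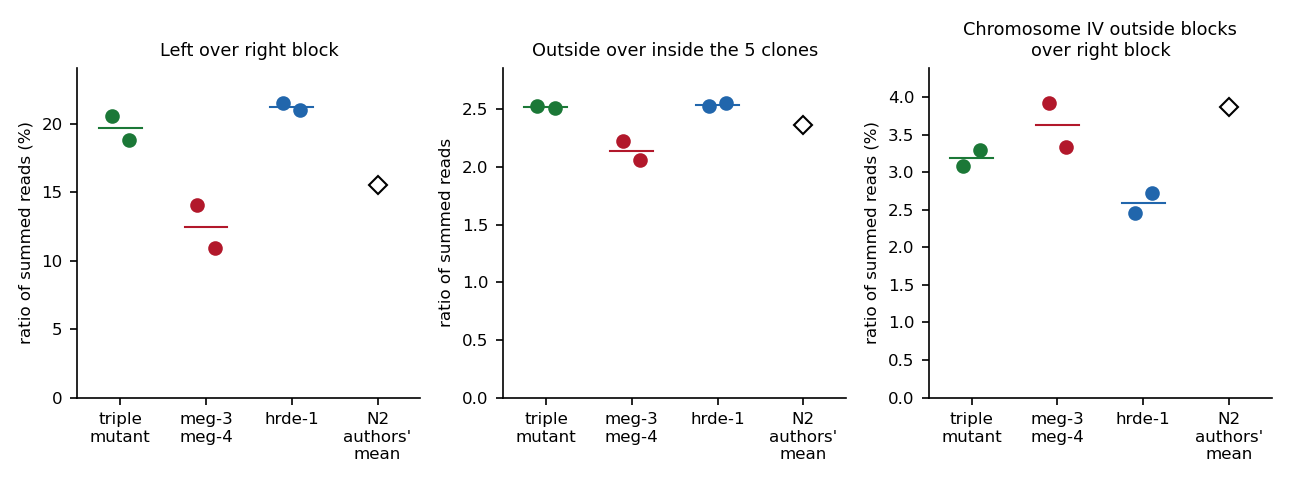
Ratios of summed reads within each library, with 1 filled point per library, a line at the mean of 2 libraries, and an open diamond for the authors' N2 mean. The meg-3 meg-4 points are the lowest for the left over the right block (14.1% and 10.9%) and for loci outside over inside the 5 clones (2.22 and 2.06), and not for chromosome IV outside the blocks.

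The left-block difference was seen in each of 10 subsets of loci, which overlap one another. In loci at 10 or more RPM, at 1 to 10 and below 1, loci of each strand, loci between genes, in introns and in exons, and loci that do or do not overlap another 21U-RNA, both meg-3 meg-4 libraries had a lower left over right ratio than the other 4 libraries. It also ran along the whole block. Split into 5 runs of equal locus number, the left block gave a log2 ratio of triple mutant to meg-3 meg-4 between 1.05 and 1.20, and the right block between 0.33 and 0.52. For meg-3 meg-4 over hrde-1 the runs of the left block lay between -1.16 and -0.91, and those of the right block between -0.40 and -0.14.

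By clone, 49 clones of the left block had at least 100 reads over the 6 libraries. Both meg-3 meg-4 libraries were below both triple mutant libraries in all 49 of them, and below both hrde-1 libraries in 47. The exceptions were C01B10 with 284 reads and Y73B6BR with 134 reads in all. Of 44 such clones of the right block, 35 were below triple mutants and 11 below hrde-1. These counts were 7 and 2 of 12 clones on chromosome IV outside the blocks, and 1 and 1 of 5 on other chromosomes. For single loci the shares over all loci tested were 18.8% and 24.1%, and 11 of 44 is near the latter. Clone sums were not formed for other loci, so a share over all clones is not given. The richest clone of the left block, B0273, had 532 and 396 RPM in triple mutants, 217 and 174 in meg-3 meg-4, and 398 and 526 in hrde-1. The richest clone of the right block, Y73F8A, had 5713 and 4762 in triple mutants, 3447 and 4103 in meg-3 meg-4, and 3886 and 5416 in hrde-1. At Y73F8A the meg-3 meg-4 and hrde-1 libraries overlapped, and at B0273 they did not.

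**Figure D3:**
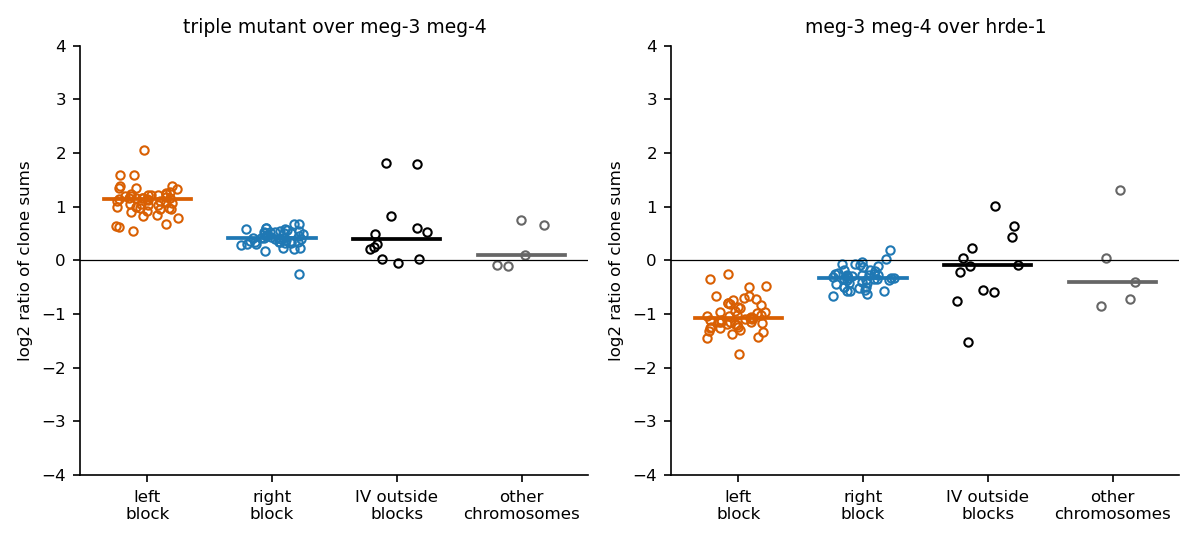
Log2 ratio of the summed level of each clone with at least 100 reads, by position, for triple mutants over meg-3 meg-4 and for meg-3 meg-4 over hrde-1. Each point is a clone and the line is the median, which is 1.13 and -1.07 in the left block and 0.42 and -0.33 in the right block.

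Triple mutants were set against meg-3 meg-4 locus by locus, strains that differ by hrde-1(tm1200). The labels give the meg-3 meg-4 strain alone as outcrossed, so in every comparison with that strain, the block ratios included, genotype and strain background cannot be told apart. In the left block 18 loci rose in triple mutants, with log2 fold changes of 1.16 to 1.62, and in the right block 0 passed the test. limma was fitted to log2(value + 1) of the 6067 loci with a mean of at least 10, among them 283 of the 9368. A locus can pass that filter through the strain in which it is high, so these counts describe the tested loci alone. Of the 283, 18 (6.36%) rose and 0 fell at a Benjamini-Hochberg adjusted p under 0.05 with limma, and 61 had an unadjusted p under 0.05. Over all loci tested 4.30% rose and 3.44% fell. edgeR on the recovered reads called 8 of 1031 higher and 1 lower, beside 277 higher and 240 lower of all 11708 loci it tested. DESeq2 called 17 of 872 higher and 0 lower, beside 292 higher and 237 lower of all 10788. Without either triple mutant library 0 loci were called, while leaving out the first meg-3 meg-4 library gave 28 calls and leaving out the second gave 49. Likewise 0 were called when libraries were scaled to their totals or their miRNA reads.

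All 18 were among the 63 tested loci of the left block. These 63 all had a positive log2 fold change, with a median of 1.07, a lowest value of 0.42 and a highest of 1.62. Both triple mutant libraries were above both meg-3 meg-4 libraries at 62 of the 63, against 18.8% of all loci tested. The 210 tested loci of the right block had a median of 0.37 and 0 calls with limma, with 7 at an unadjusted p under 0.05. Their libraries were separate in that direction at 93 of the 210. edgeR and DESeq2 tested more loci of the right block and called 0 of 774 and 1 of 655. In the left block they called 7 of 210 and 16 of 176. The median over all loci tested was -0.11, and it was 0.31 for the 133 tested loci of the 5 clones. Loci of other kinds within the same stretches of the chromosome did not show the step: the median was -0.13 for 82 such loci of the left block and -0.07 for 93 of the right block.

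The largest rise was at 21ur-1242 (C39H7.11, between genes), which had 36.9 and 22.0 RPM in triple mutants and 10.3 and 6.43 in meg-3 meg-4. Its log2 fold change was 1.62 ± 0.387 (SE, limma adjusted p = 0.014). Next was 21ur-11343 (C06E7.63, in an intron of spe-27, a gene needed to activate sperm), with 18.1 and 22.0 RPM in triple mutants and 4.89 and 8.03 in meg-3 meg-4. At 21ur-5141 (C06E7.35, in an intron of egal-1), the called locus with the most reads after 21ur-15223, the levels were 156 and 115.8 in triple mutants and 43.5 and 52.8 in meg-3 meg-4. Libraries of the 2 strains did not overlap at any of these loci. 21ur-3065 (F26D12.24, in an intron of the forkhead gene fkh-7), 21ur-5530 (T28H11.24) and 21ur-6751 (C39H7.55) rose with log2 fold changes of 1.39 ± 0.323, 1.37 ± 0.374 and 1.35 ± 0.382 (SE, limma adjusted p = 0.012, 0.034 and 0.041). By position, 9 of the 18 were in introns, 8 between genes and 1 in an exon.

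The comparison of meg-3 meg-4 with hrde-1 uses the same meg-3 meg-4 libraries, so it is not independent of the first. It was fitted on TMM-scaled RPM of the 6 libraries together, over 6469 loci with a mean of at least 10, among them 304 of the 9368. Of the 304, 1 rose and 38 (12.5%) fell in meg-3 meg-4 (limma adjusted p under 0.05), where 7.02% of all loci tested rose and 9.38% fell. Of the 38, 34 were among 71 tested loci of the left block. All 71 had a negative log2 fold change, with a median of -1.08, against a median of -0.29 for 222 tested loci of the right block, -0.21 for 140 loci of the 5 clones and -0.15 for all loci. Both meg-3 meg-4 libraries were below both hrde-1 libraries at 65 of the 71 and at 57 of the 222, against 24.1% of all loci tested. Loci of other kinds had medians of -0.18 in the left block (91 loci) and -0.07 in the right block (99 loci). The count of calls was 23 without meg-3 meg-4 replicate 1, 6 without hrde-1 replicate 1 and 10 without hrde-1 replicate 2.

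**Figure D4:**
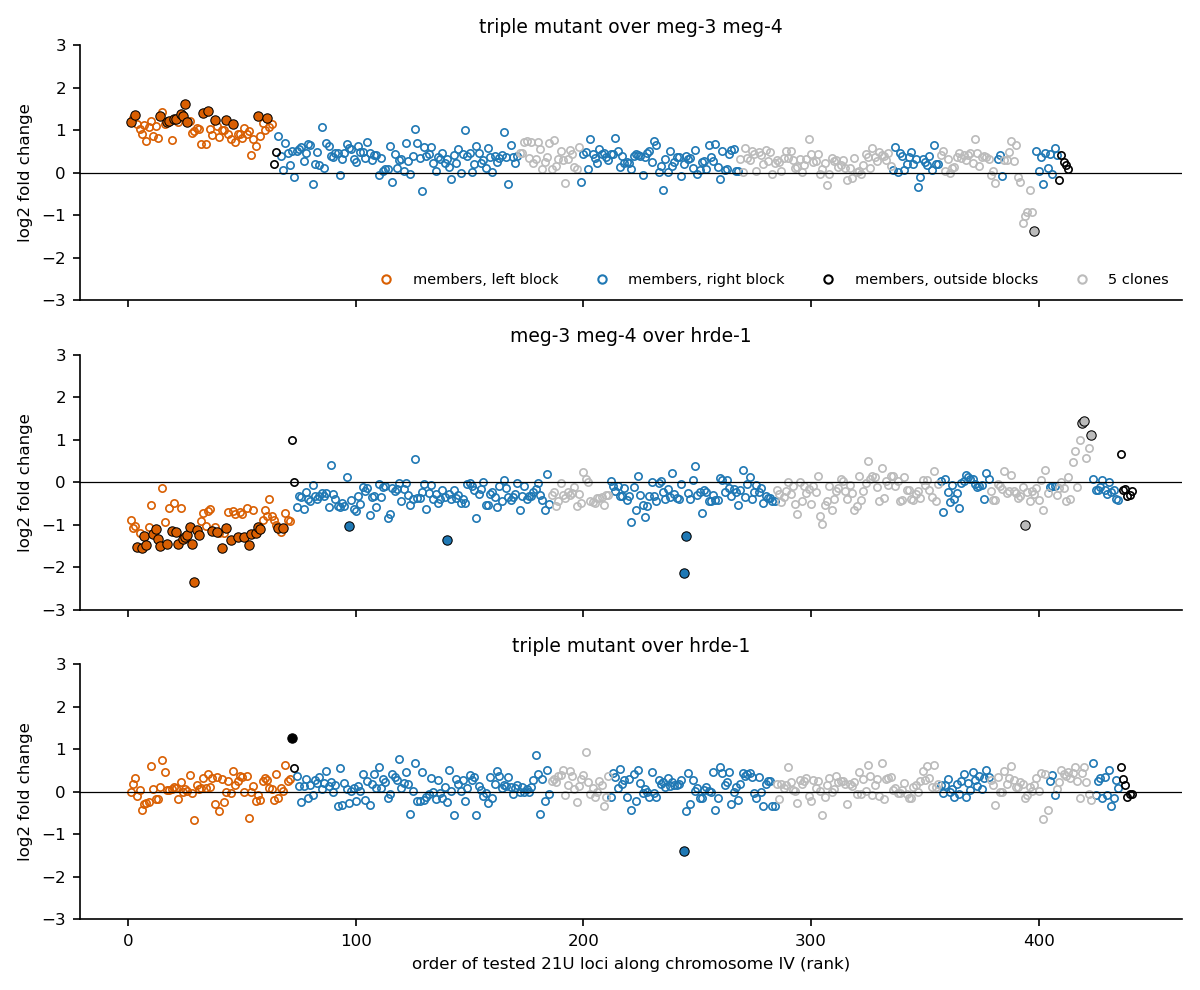
Log2 fold change of each tested 21U-RNA locus of chromosome IV in its order along the chromosome, for 3 comparisons. Filled points passed the test (limma adjusted p under 0.05), and loci of the 5 clones are grey. The left-block points lie around 1.07 in triple mutants over meg-3 meg-4, around -1.08 in meg-3 meg-4 over hrde-1 and near 0 in triple mutants over hrde-1.

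The largest fall in meg-3 meg-4 was again at 21ur-1242, with 10.3 and 6.43 RPM in meg-3 meg-4 and 53.7 and 38.6 in hrde-1 (log2 fold change -2.35 ± 0.362, SE, limma adjusted p = 3.3e-04). Triple mutants lay between, with both of their libraries below both hrde-1 libraries, a difference that did not pass the test (limma adjusted p = 0.38). The next was 21ur-4880 (Y73F8A.339, in an intron of the chemoreceptor gene srj-42), a right-block locus, with 5.06 and 6.63 RPM in meg-3 meg-4 and 26.4 and 31.8 in hrde-1. It fell by 2.14 ± 0.360 on the log2 scale (SE, limma adjusted p = 6.8e-04). Then came 4 loci of the left block: 21ur-3101 (Y44C4A.1), 21ur-6548 (C09B9.23), 21ur-5530 and 21ur-1022 (Y4C6B.24). Their mean levels lay between 4.04 ± 1.45 RPM at 21ur-3101 and 8.46 ± 2.59 RPM at 21ur-5530 for the 2 meg-3 meg-4 libraries, and between 13.5 ± 1.58 RPM at 21ur-3101 and 25.8 ± 2.67 RPM at 21ur-5530 for the 2 hrde-1 libraries (SD, n = 2). At each of the 4 loci both meg-3 meg-4 libraries were below both hrde-1 libraries.

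Outside the left block, the other loci that fell were 21ur-3926 (Y64G10A.158), 21ur-5107 (Y73F8A.203) and 21ur-2351 (Y37A1A.66) of the right block, named here because they are few. 21ur-3926 had 138 and 127 RPM in meg-3 meg-4 and 375 and 306 in hrde-1. The locus that rose, 21ur-11898 (Y54F10BM.16), is on chromosome III in an exon of Y54F10BM.9, on the same strand. It had 39.7 and 40.6 RPM in meg-3 meg-4 and 9.15 and 23.4 in hrde-1 (log2 fold change 1.38 ± 0.398, SE, limma adjusted p = 0.028). In triple mutants it had 43.2 and 30.5 RPM. The authors' deposited tables list it as lower in hrde-1 than in N2 (log2 fold change -1.35) and give -0.17 for triple mutants over N2. Reads counted at its host gene numbered 640 and 276 in triple mutants, 1971 and 2914 in meg-3 meg-4, and 1038 and 952 in hrde-1. The host was thus higher in meg-3 meg-4 than in hrde-1, as the locus was, but lowest in triple mutants, where the levels of the locus overlapped those in meg-3 meg-4. Against N2 the authors' deposited tables give the host log2 fold changes of -2.25 for hrde-1 and -2.82 for triple mutants.

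Between triple mutants and hrde-1, which differ in meg-3 and meg-4, few of these loci differed. Of 304 tested, 21ur-13215 rose and 21ur-4880 fell (limma adjusted p under 0.05), beside 4.37% and 5.91% of all loci tested. Neither was called without triple mutant replicate 1 or without hrde-1 replicate 1, and 1 locus was called without hrde-1 replicate 2. The left block had a median log2 fold change of 0.08, the right block 0.13 and all loci -0.18. In the left block limma called 0 of 71 loci, with 0 at an unadjusted p under 0.05, and edgeR called 0 of 272 and DESeq2 0 of 218. The left-block sums of 4838 and 3740 RPM in triple mutants and 3483 and 4844 in hrde-1 overlapped. 21ur-13215 (Y59H11AR.7, on chromosome IV outside the blocks, in an exon on the opposite strand) had 100.5 and 97.0 RPM in triple mutants and 33.4 and 48.7 in hrde-1, with 68.3 and 98.0 in meg-3 meg-4. Its log2 fold change was 1.27 ± 0.346 (SE, limma adjusted p = 0.032). 21ur-4880 had 8.31 and 13.1 RPM in triple mutants and 26.4 and 31.8 in hrde-1 (log2 fold change -1.39 ± 0.360, SE, limma adjusted p = 0.025). In both strains that lack meg-3 and meg-4 its level was below that in hrde-1. Scaling to miRNA reads, with which 324 of these loci passed the filter, called 226 of the 324 lower. In that setting the median of all loci was -1.27.

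Against N2, the authors' deposited tables list more of these loci as higher than as lower. In their deposited table of triple mutants over N2, 1195 of the 9368 loci have an adjusted p, and at an adjusted p under 0.05 it lists 73 as higher and 9 as lower, beside 8.77% and 10% (1265 of 12595) of all loci with an adjusted p. For hrde-1 against N2 the authors' deposited table gives an adjusted p to 1512 of them and lists 47 as higher and 5 as lower, beside 8.75% and 7.19% of all loci. In that of triple mutants over meg-3 meg-4, 16 of 1055 are listed as higher and 1 as lower, beside 2.39% and 1.94%. The shares listed as higher among these loci, 6.11%, 3.11% and 1.52%, were below those of all loci in each of these tables.

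Of the left block, the authors' deposited tables list 33 of 262 loci as higher in triple mutants than in N2 and 1 as lower, 26 of 334 as higher in hrde-1 than in N2 and 0 as lower, and 15 of 221 as higher in triple mutants than in meg-3 meg-4 and 0 as lower. For the right block these are 35 and 5 of 879, 21 and 1 of 1114, and 1 and 0 of 786. The left-block shares listed as higher, 12.6%, 7.78% and 6.79%, were above the share of all loci for triple mutants over N2 and over meg-3 meg-4, and below it for hrde-1 over N2. The median log2 fold changes of the left block in the authors' deposited tables were 0.65 for triple mutants over N2, 0.57 for hrde-1 over N2 and 1.04 for triple mutants over meg-3 meg-4. Those of the right block were 0.30, 0.22 and 0.37, and those of the few loci on chromosome IV outside the blocks 0.34, 0.27 and 0.41. Both tables against N2 share the N2 libraries.

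**Figure D5:**
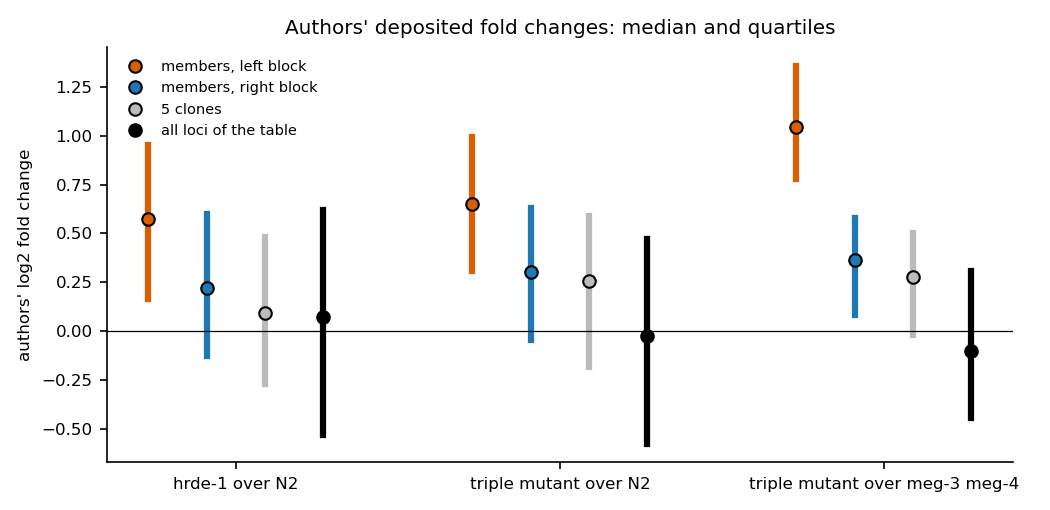
Log2 fold change in the authors' deposited tables, as median (point) and lower to upper quartile (bar), over loci with an adjusted p, for the left block, the right block, the 5 clones and all loci of the table. Of these 4 sets the left block has the highest median in each table (0.57, 0.65 and 1.04) and the right block the next (0.22, 0.30 and 0.37).

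Single loci with large rises against N2 were mostly of low level. Of the 3 largest rises in each table, the one with the most reads was at 21ur-4253 (ZK616.15, in an intron of ehn-3, left block). The authors' deposited tables give this locus log2 fold changes of 2.50 for triple mutants over N2 and 2.42 for hrde-1 over N2. It had 36.0 and 16.4 RPM in triple mutants, 10.6 and 6.02 in meg-3 meg-4, and 27.2 and 20.5 in hrde-1. The other rises were at loci under 8 RPM in every library: in the authors' deposited tables the locus 21ur-13684 on chromosome V and 21ur-1230 in an intron of mgl-3 had 3.11 and 2.24 for triple mutants over N2, and 21ur-6701 and 21ur-6672 had 3.22 and 2.34 for hrde-1 over N2. The 3 largest falls against N2 in each table included 21ur-10492. For hrde-1 the others were 21ur-15630 and 21ur-148 (-3.57 and -1.58 in the authors' deposited table). For triple mutants they were 21ur-4880 and 21ur-169 (-1.88 and -1.57 in the authors' deposited table). In the authors' N2 mean, 21ur-15630 had 46.7 RPM and 21ur-4880 had 50.1. There 21ur-10492 had 7.84, 21ur-148 had 12.3 and 21ur-169 had 15.3. Smaller falls listed in the authors' deposited tables include 21ur-11898 for hrde-1 (-1.35) and 21ur-15630 for triple mutants (-1.46). Among the 15 most abundant loci, the authors' deposited tables list smaller log2 fold changes (adjusted p under 0.05). For triple mutants over N2, 21ur-5329, 21ur-4748, 21ur-1143, 21ur-5630, 21ur-1793, 21ur-7225 and 21ur-88 are higher, by 0.48 to 1.08, and 21ur-3506 is lower (-0.61). For hrde-1 over N2, 21ur-1793, 21ur-7225 and 21ur-88 are higher (0.92, 0.84 and 1.02). The rest of the 15 are listed in neither direction.

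A few of the falls were at loci in exons. Among hrde-1 against N2 in the authors' deposited table, 4 of the 5 lower loci lie in exons of other genes, 3 of them on the opposite strand, while 84 of the 1512 loci with an adjusted p do. For triple mutants against N2, the authors' deposited table has 2 of the 9 lower loci in exons, 4 in introns and 3 between genes. These counts are small and were not tested. Of these loci listed as lower, 21ur-10492 (F15D4.10, chromosome II) has the largest fall in each of the authors' deposited tables. It lies in an exon of F15D4.5 on the opposite strand. It had 0 and 0 reads in triple mutants, 14 and 26 in meg-3 meg-4, and 4 and 0 in hrde-1. A count of 0 allows up to 3 reads per library. The authors' deposited tables give it log2 fold changes of -6.79 for triple mutants over N2, -4.07 for hrde-1 over N2 and -6.22 for triple mutants over meg-3 meg-4. Its host moved the same way: F15D4.5 had 1779 and 556 reads in triple mutants, 10914 and 11578 in meg-3 meg-4, and 1813 and 1328 in hrde-1, with -3.33, -3.38 and -2.90 in the authors' deposited tables. Antisense small RNAs of such a host lie on the strand of the 21U-RNA locus, and without read lengths the 2 kinds cannot be told apart there. Loci between genes alone, which have no host, gave left over right block ratios of 0.130 and 0.120 in triple mutants, 0.0927 and 0.0718 in meg-3 meg-4, and 0.139 and 0.139 in hrde-1.

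Small RNA reads at genes of the 21U-RNA pathway were looked at beside the loci themselves. These are reads at the genes, mostly a measure of small RNAs made against their transcripts, and say nothing of mRNA. The list held 28 genes, and 25 were tested. It included prg-1, the 3' methyltransferase gene henn-1, the trimming exonuclease gene parn-1 and the tofu and pid genes. It also held prde-1 and snpc-4, which act in transcription of the precursors, and the downstream Argonautes wago-1 and hrde-1. limma called 0 of the 25 in each of the 3 comparisons, with 1 at an unadjusted p under 0.05 for triple mutants over meg-3 meg-4, 0 for triple mutants over hrde-1 and 1 for meg-3 meg-4 over hrde-1. edgeR called 0 of 27 in each, and DESeq2 called 1 of 27 for triple mutants over meg-3 meg-4 and 0 in the others. The limma calls depended on scaling. With library totals 1 of 25 was called in each comparison. With miRNA reads 1 was called for triple mutants over meg-3 meg-4, 25 for triple mutants over hrde-1 and 12 for meg-3 meg-4 over hrde-1. In the last 2 of these fits the median of all loci was -1.27 and -1.06. Their median log2 fold changes were -0.17 for triple mutants over meg-3 meg-4, -0.29 for triple mutants over hrde-1 and -0.38 for meg-3 meg-4 over hrde-1, beside -0.11, -0.18 and -0.15 over all loci tested. At prg-1 there were 2410 and 1003 reads in triple mutants, 3001 and 1448 in meg-3 meg-4, and 4934 and 2390 in hrde-1. These reads are not scaled for depth. After scaling, its log2 fold change was 0.18 for triple mutants over meg-3 meg-4 (limma adjusted p = 0.89). It was -0.39 for triple mutants over hrde-1 and -0.63 for meg-3 meg-4 over hrde-1 (limma adjusted p = 0.61 and 0.36). At the hrde-1 gene itself there were 1944 and 633 reads in triple mutants, 3640 and 3096 in meg-3 meg-4, and 4138 and 2218 in hrde-1 (triple mutant over meg-3 meg-4 log2 fold change -0.996 ± 0.325, SE, limma adjusted p = 0.086). In the authors' deposited tables, 27 of the 28 have an adjusted p. There 9 are listed as higher and 0 as lower in hrde-1 than in N2, beside 8.75% and 7.19% of all loci, and 5 as higher and 1 as lower in triple mutants than in N2, beside 8.77% and 10% of all loci. For triple mutants over meg-3 meg-4 they list 0 in either direction, beside 2.39% and 1.94% of all loci. The lower one was hrde-1, at -0.90 in the authors' deposited table.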

How the data were processed

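Small RNA libraries of 3 strains, 2 libraries each, were analysed from 3 tables of 42402 loci that the authors deposited. The submitters' processing notes name the tools cutadapt, Bowtie2, HTSeq and DESeq2 and the build ce10. Their versions, and how strand and reads with several positions were handled, are not given in the sources used here. Per the file headers the values are fpm. In 2 deposited tables they are a scaled signal whose library sums differ, and in the table of triple mutants over N2 they are RPM, each library adding up to 1000000. The authors also deposited a log2 fold change per locus with its adjusted p-value, and a mean of N2. The 4 per-library N2 columns were not used here.

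Every value was a whole multiple of its library's smallest value, within 0.001 read, so whole reads were recovered. Totals were 2384147 to 6780320 reads per library. Loci outside the 5 clones were chosen by name, and these loci and the gene lists were chosen with earlier results of these data known. Triple mutants were compared with meg-3 meg-4 on the values of the deposited table that holds both. The other comparisons used recovered reads, scaled together over 6 libraries by TMM in edgeR 4.0.16. Loci with a mean of 10 or more entered limma 3.58.1 (with its trend option) as log2(value + 1), with Benjamini-Hochberg adjustment over all loci tested and a threshold of 0.05. The fits were also run on simulated data with known changes, which were larger than the median changes of the left block. That run does not show how well changes of the left block's size are found.

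Sums were compared by exact permutation over libraries. Alternatives were scaling to library totals, to miRNA reads and by TMM, a pseudocount of 0.5, a filter at a mean of 1 or none, a replicate block, edgeR, DESeq2 1.42.0, and leaving out each library. Named were the 15 most abundant loci, all loci called in a comparison (or, above 12 calls, the 6 largest rises and falls with separate groups) and the 3 largest changes each way in each of the authors' tables. Chromosome, strand and host gene came from Ensembl's WBcel235 annotation, which matched 9366 of the 9368 loci. Its build differs from ce10, so it was used for names and order and no coordinates are given.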

Additional observations from a re-analysis of the deposited data

How the results depend on the processing

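The left over right block ratio kept its direction in all alternatives for triple mutants over meg-3 meg-4 and for meg-3 meg-4 over hrde-1. These were chosen after seeing the data: gaps of 100 kb, without the 10 most abundant loci of each block, loci under 10 RPM, and without each library. For triple mutants over hrde-1 that log2 ratio was -0.11, and -0.011 with loci under 10 RPM. The log2 ratio of loci outside over inside the 5 clones was -0.01 for triple mutants over hrde-1, and -0.044 without the 10 most abundant loci. The summed level of triple mutants over hrde-1 was -0.28 with library totals and -0.97 with miRNA reads, and that of meg-3 meg-4 over hrde-1 was -1.31 with miRNA reads, on the log2 scale. The median log2 fold change was 0.11 with no filter for triple mutants over meg-3 meg-4, and with miRNA reads -0.95 for triple mutants over hrde-1 and -1.26 for meg-3 meg-4 over hrde-1. Scaling to miRNA reads moved the median of all loci to -1.27 and -1.06 in those 2 comparisons.

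For triple mutants over meg-3 meg-4, the 18 calls became 0 with library totals, 0 with miRNA reads, 5 with TMM, 28 with no filter, 9 with edgeR, and 0 to 49 without single libraries. For triple mutants over hrde-1, the 2 calls became 226 with miRNA reads, 4 with a filter at a mean of 1, and 0 to 2 without single libraries. For meg-3 meg-4 over hrde-1, the 39 calls became 275 with miRNA reads and 6 to 49 without single libraries. The cause of these shifts was not tested. The filter at a mean of 10 kept 283 of the 9368 loci in the first comparison and 304 in the others. At this depth most loci had too few reads for single-locus comparisons.

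Same-numbered libraries were not shown to be paired: their deviations correlated at -0.107 for triple mutants and meg-3 meg-4, -0.185 for triple mutants and hrde-1 and 0.555 for meg-3 meg-4 and hrde-1. With the replicate number as a block, the calls were 8, 3 and 45 in these comparisons. With the triple mutant numbers crossed, an alternative added after seeing the data, they were 36 and 3 in the comparisons that hold triple mutants.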
